A study of Mus musculus with 5 samples.

Results

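The adrenergic receptors are the receptors for norepinephrine and epinephrine, and 7 of their genes (Adra1a, Adra1b, Adra1d, Adra2a, Adra2b, Adra2c and Adrb1) were followed here by gene name in ribosome-bound RNA of central amygdala (CeA) Drd2 neurons. Of these 7 genes, 6 are among the 15093 genes of the deposited table and 5 passed the filter for the comparison of groups, a mean value of at least 1. Adra1d is not analysed here, because the table, in which each gene exceeds a value of 1 in some library, does not list it.

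RNA came from adult Drd2-TRAP mice, a cross of the Drd2-Cre line (a BAC transgene) with a Rosa26 line in which Cre switches on a ribosomal protein, L10a, fused to EGFP. In translating ribosome affinity purification (TRAP), the tagged ribosomes are pulled down with the mRNA they carry, so that any cell with Cre activity at some time of its life contributes. Ribosomes of the fear conditioned (FC) mice were collected after tones paired with a foot shock, and those of the control mice, labelled Home Cage, without shock. The labels speak of collection 2 h after extinction, while the results text of the study places it after conditioning and has controls that heard the tone. Each library was a pool of bilateral punches from 3 animals, with 3 FC libraries (replicates 2, 3 and 4) and 2 control libraries (replicates 6 and 7). All groups carry both transgenes, and nothing in the labels gives the sex of the animals.

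The 3 families of adrenergic receptor couple to different G proteins. Receptors of the alpha1 class act through Gq and phospholipase C, those of the alpha2 class through Gi/o, which lowers cAMP and opens potassium channels, and those of the beta class through Gs, which raises cAMP. Norepinephrine reaches the amygdala from the brainstem, and its release there during emotional arousal is known for its part in the storage of fear memories.

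The libraries were deep but unequal in the genes they held. FC replicates 2, 3 and 4 gave 21070588, 25022225 and 19988438 recovered reads on genes, control replicate 6 gave 27937520 and control replicate 7 gave 19605318. A floor of 3 reads corresponds to values between 0.1 and 0.158 counts per 1000000 (CPM). It takes in counting error alone, because reads were amplified and do not stand for separate molecules. FC libraries had 349, 263 and 159 genes at 0, control replicate 6 had 976 and control replicate 7 had 2681, or 17.8% of the table. Pearson's r of log2(CPM + 1), across genes, which are not independent replicates, was at least 0.979 between FC libraries and 0.787 between the control libraries. Between control replicate 6 and the FC libraries it was 0.909 to 0.911, and between control replicate 7 and the FC libraries 0.826 to 0.840. Control replicate 7 thus stood furthest from the FC libraries, and the controls were less alike than either was to any FC library. The fold changes of the tested receptors are given with and without each control.

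Markers of the Drd2 neuron were plentiful. Drd2 had 326, 375 and 555 CPM in the FC libraries and 128 and 262 CPM in the controls, above at least 88.7% of the listed genes in each library. Penk, the precursor of enkephalin, had 16076, 13565 and 14950 CPM in the FC libraries and 6098 and 8606 CPM in the controls. Both genes are also abundant in the neighbouring striatum, so they bear on the labelled cell type and not on the tissue. Prkcd, a marker of central amygdala neurons, had 11.5, 11.9 and 11.2 CPM in the FC libraries and 14.2 and 41.1 CPM in the controls. Markers of other cells were present in each library. In RNA pulled down from pooled punches, fewer cells of a type and less RNA per cell cannot be told apart. The part of RNA from cells without the tag was not tested.

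Among the 6 listed members, Adra2c was the most abundant transcript in all 5 libraries, Adrb1 and Adra2a followed by mean level, and Adra1a, Adra1b and Adra2b were rare. On a per-length scale (CPM divided by the deposited gene length in kilobases) the mean level over 5 libraries was 15.9 for Adra2c, 3.63 for Adrb1, 1.63 for Adra2a, 0.371 for Adra1a, 0.289 for Adra1b and 0.0642 for Adra2b. Adra2c stood above Adrb1 in 5 of 5 libraries, by 2.22 ± 0.85 on a log2 scale of the per-length level plus 0.1 (SD, n = 5 libraries). Adra2a stood above Adra1a in 5 of 5 libraries, by 1.82 ± 0.48 (SD, n = 5) on the same scale. For each of these 2 pairs a two-sided exact sign-flip permutation test gave p = 0.0625, the smallest that 5 libraries allow, or 0.156 adjusted over the 5 neighbouring pairs.

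The other neighbours were not separated in every library. Adrb1 was above Adra2a in 4 of 5 libraries, by 1.34 ± 0.88 (SD, n = 5), with an exact permutation p of 0.125, and in control replicate 6 the order turned, with a difference of -0.10. Adra1a and Adra1b had no fixed order, with a difference of 0.26 ± 1.52 (SD, n = 5). Adra1b was higher per length in each FC library, and Adra1a was higher in control replicate 6. Without control replicate 6 the mean difference turned to -0.42. Adra1b was above Adra2b in 4 of 5 libraries and level with it, at 0 reads, in control replicate 7.

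**Figure D1:**
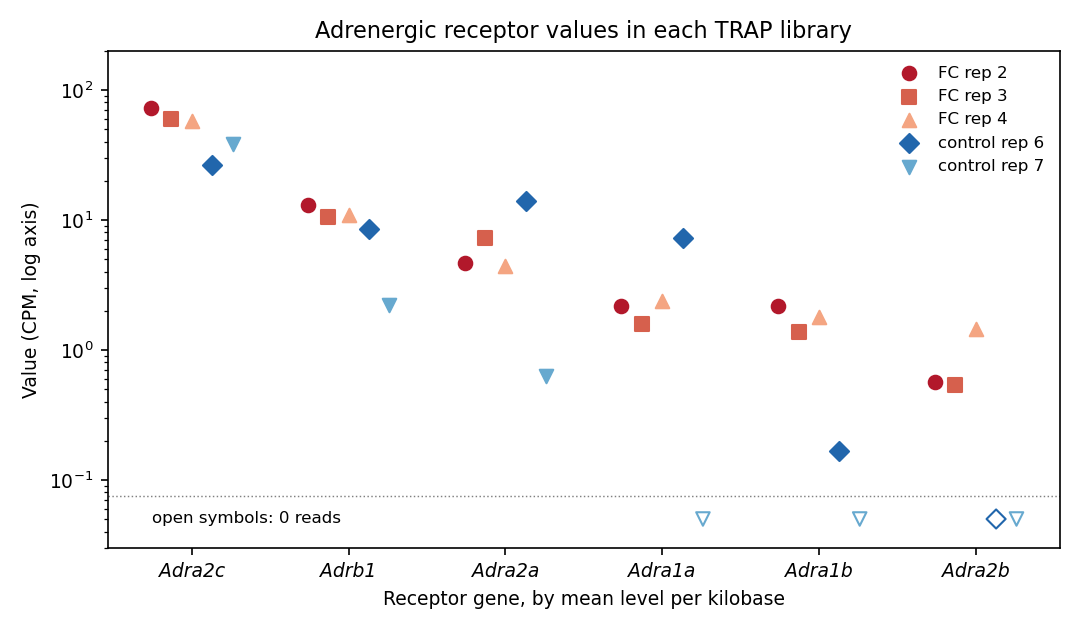
Values of the 6 listed receptors in each library, in CPM on a log axis, with red symbols for FC replicates and blue symbols for control replicates. Open symbols below the dotted line stand for 0 reads, and Adra2c lies above every other receptor in each library.

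As a share of the summed per-length level of the 6 receptors, Adra2c took 75.3%, 73.3% and 73.5% in FC replicates 2, 3 and 4. In the controls it took 50.5% in replicate 6 and 91.9% in replicate 7, on both sides of the FC libraries. The alpha2 class as a whole made up 79.7%, 81.0% and 79.0% of the total in the FC libraries and 72.8% and 93.2% in the controls. Adrb1 took between 16.7% and 17.8% in the FC libraries, 20.8% in control replicate 6 and 6.85% in control replicate 7. Shares of the alpha1 class stayed between 2.28% and 3.25% in the FC libraries, and were 6.34% and 0% in the controls. Among the FC libraries the share of Adra2a was 4.13%, 7.49% and 4.73%, and that of Adra2b was 0.239%, 0.267% and 0.737%. The controls lay on either side of the FC libraries for Adra2c, Adrb1 and both alpha classes.

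**Figure D2:**
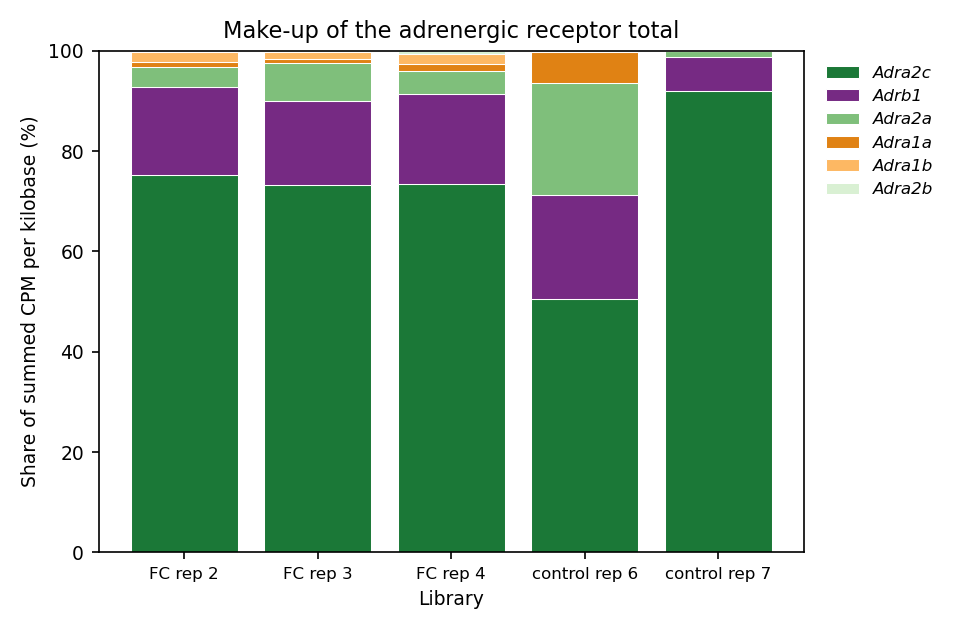
Stacked bars give each receptor's percent of the summed CPM per kilobase of the 6 listed receptors in a library. In the FC bars Adra2c takes between 73.3% and 75.3%, and the control bars differ, with Adra2c at 50.5% and 91.9%.

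The sequences just upstream of the start sites of the 3 most abundant receptors are shown because these genes carry most of the signal of the family. Each is 250 bases from the RefSeq annotation of GRCm38.p6, on the + strand and ending at the base before the start, and 5 of the 7 members were matched in that table. Capitals mark letters searched on both strands: the cAMP response element TGACGTCA and its core TGACG, which overlap, the E-box CACGTG, the GC box GGGCGG, the CCAAT box CCAAT and the TATA box TATAAA.
Adra2c, chr5:35278316-35278565: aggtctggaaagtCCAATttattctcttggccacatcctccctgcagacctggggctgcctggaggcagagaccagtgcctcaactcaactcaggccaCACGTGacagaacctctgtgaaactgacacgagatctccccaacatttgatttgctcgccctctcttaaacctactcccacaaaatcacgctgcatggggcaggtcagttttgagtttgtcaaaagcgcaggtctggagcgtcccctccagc
Adrb1, chr19:56721867-56722116: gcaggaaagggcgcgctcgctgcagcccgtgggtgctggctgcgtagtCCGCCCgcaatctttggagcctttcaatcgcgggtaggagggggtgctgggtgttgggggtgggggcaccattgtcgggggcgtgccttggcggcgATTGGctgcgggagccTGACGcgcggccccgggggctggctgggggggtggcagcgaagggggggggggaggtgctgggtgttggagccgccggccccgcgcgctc
Adra2a, chr19:54045009-54045258: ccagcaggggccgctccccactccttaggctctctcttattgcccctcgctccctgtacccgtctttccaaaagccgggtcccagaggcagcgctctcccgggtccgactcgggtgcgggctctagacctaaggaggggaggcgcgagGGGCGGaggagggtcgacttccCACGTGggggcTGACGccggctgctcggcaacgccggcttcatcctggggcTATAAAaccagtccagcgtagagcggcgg

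The window of Adra2c, the leading receptor, holds 1 E-box and 1 CCAAT box and no GC box or TATA box. Windows with an E-box made up 6.02% of the 32851 windows of the same length in the table, and those with a CCAAT box 33.8%. Upstream of Adrb1 there is 1 core TGACG (17.8% of windows), 1 GC box (32.7%) and 1 CCAAT box on the reverse strand. Adra2a, with its E-box in common with Adra2c, also holds 1 core TGACG, 1 GC box and 1 TATA box (12.4%). The full cAMP response element, found in 1.55% of windows, is in none of the 6 windows of the matched members. GC made up 53.6% of the bases for Adra2c, 74.0% for Adrb1 and 67.6% for Adra2a, beside a median of 52.4% over the table. A match describes these letters only.

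Whether fear conditioning changed the receptors was asked with limma on log2(CPM + 1) for 13560 genes, with Benjamini-Hochberg adjustment over all of them. To be called, a gene needed an adjusted p below 0.05 and a log2 fold change above 0.5 in either direction. No receptor was called, 0 of the 5 tested, and limma called 0 of the 13560 genes (0%). Without adjustment, 2280 genes had p below 0.05. On the recovered reads, voom and the quasi-likelihood test of edgeR likewise called 0 genes. DESeq2 called 1155 genes, with 573 called higher out of 14507 (3.95%), and none of the 5 receptors to which it gave an adjusted p. Adra2b got no adjusted p from it. The likelihood ratio test of edgeR, added after the values were seen, called 1115 genes (7.70%), Adra1b and Adra2b among them. For none of the 6 receptors does an annotated gene of the RefSeq table overlap the locus. Every FC library exceeded both controls for 4 of the 6 listed receptors, 3 of them among the 5 tested, whereas this held for 20.2% of all genes tested and the opposite held for 16.1%. Unadjusted p values under 0.05 were reached by Adra2c and Adra1b, both higher, beside 9.49% of genes tested that were higher and 7.32% that were lower at this threshold. Adra1b passed the filter, and Adra2b entered the table, only through their FC values, so their p values, calls and places in these counts are not independent of their direction. Nothing in the labels says that the pools of a group were separate cohorts, so these p values measure the spread between pools. The main fit takes this spread as equal in both groups. Within groups, edgeR gave a biological coefficient of variation of 0.256 for FC and 1.25 for control libraries. When limma weighted each group by its own spread, the SE was 0.62 for Adra2c and 1.00 for Adra1b (unadjusted p = 0.147 and 0.196). In that weighted fit 655 genes had an unadjusted p below 0.05.

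Adra2c (ENSMUSG00000045318), an alpha2 receptor known as a brake on transmitter release and abundant in striatal projection neurons, had 72.0, 59.6 and 57.7 CPM in the FC libraries, 26.6 CPM in control replicate 6 and 38.1 CPM in control replicate 7. All FC libraries lay above both controls, and the mean of 63.1 ± 7.75 CPM (SD, n = 3) stood beside 32.4 ± 8.14 CPM (SD, n = 2), a ratio of 1.95. These values rest on between 723 and 1519 reads a library. Its log2 fold change was 0.96 (limma, SE 0.30, 95% interval 0.23 to 1.68, adjusted p = 0.230). The exact permutation test gave p = 0.1, two-sided, the smallest possible for 3 libraries against 2. Leaving out control replicate 6 gave 0.71, and leaving out control replicate 7 gave 1.21. Adra2c was called in both of those limma fits (adjusted p = 0.0351 and 0.0120), but with 1 control left, which is assumed to vary like the FC libraries, they also called 60.5% and 27.5% of all genes.

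Adra2c kept a nearly fixed ratio to Penk. The log2 ratio of Adra2c to Penk was -7.80, -7.83 and -8.02 in the FC libraries and -7.84 and -7.82 in the controls, so that the group means differed by -0.05 (-0.09 to 0.01 with a library left out), less than the SD of 0.12 among FC libraries. Against Drd2, the log2 ratio was -2.18, -2.65 and -3.26 in the FC libraries and -2.27 and -2.78 in the controls, a difference of -0.17 (exact permutation test, p = 0.8) that ran from -0.43 to 0.11 with a library left out. Against Adora2a, the adenosine receptor of the same neurons, it was -2.65, -3.69 and -3.75 in the FC libraries and -1.97 and -2.85 in the controls, a difference of -0.95 (exact permutation test, p = 0.3) that was -0.51 without control replicate 6 and -1.39 without control replicate 7. Groups overlapped for all 3 ratios, and the adjusted p over the 5 ratios compared, which were chosen after the values were seen, was 0.9 for each exact permutation test. Penk and Drd2 themselves had log2 fold changes of 1.03 and 1.15 (limma, adjusted p = 0.285 and 0.239).

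Adra2a (ENSMUSG00000033717), the alpha2 receptor through which guanfacine acts, had 4.69, 7.25 and 4.42 CPM in the FC libraries and 14.0 and 0.633 CPM in control replicates 6 and 7. The controls lay on opposite sides of every FC library, with 419 reads in replicate 6 and 12 in replicate 7. The log2 fold change was 0.36 (limma, SE 0.99, 95% interval -2.04 to 2.76, adjusted p = 0.872), while the mean CPM was lower in the FC group (5.45 against 7.31). It was 1.96 without control replicate 6 (limma, adjusted p = 0.00332) and -1.24 without control replicate 7 (adjusted p = 0.0393), so that the control kept set the direction.

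Adra2b (ENSMUSG00000058620), the third alpha2 receptor, was at 12, 13 and 29 reads in the FC libraries, or 0.569, 0.541 and 1.44 CPM, and at 0 reads in both controls. Set against a floor of 3 reads in each control library (mean 0.129 CPM), Adra2b had an FC mean at least 6.58-fold higher, and at least 4.30-fold higher without FC replicate 4. Its mean of 0.510 CPM over 5 libraries left it below the filter and out of the test. Among the 710 genes whose mean FC value was within 1.25 times that of Adra2b, 32.8% were at 0 in control replicate 6 and 60.8% in control replicate 7.

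Adrb1 (ENSMUSG00000035283), the beta1 receptor and the main beta receptor of forebrain neurons, had 12.9, 10.6 and 10.9 CPM in the FC libraries and 8.55 and 2.21 CPM in control replicates 6 and 7. Each FC library lay above both controls, but the gap to replicate 6 was small. The mean was 11.5 ± 1.29 CPM (SD, n = 3) in the FC group and 5.38 ± 4.48 CPM (SD, n = 2) in controls, where the spread came close to the mean. The log2 fold change was 1.16 (limma, SE 0.64, 95% interval -0.40 to 2.73, adjusted p = 0.405). It was 0.38 without control replicate 7 (limma, adjusted p = 0.384) and 1.95 without control replicate 6 (adjusted p = 0.00143). The log2 ratio of Adrb1 to Drd2 differed between the groups by 0.24 (exact permutation test, p = 0.9), and by -1.25 and 1.73 without control replicates 7 and 6.

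Adra1a (ENSMUSG00000045875), a receptor coupled to Gq, had 2.18, 1.58 and 2.38 CPM in the FC libraries and 7.21 and 0 CPM in control replicates 6 and 7. As with Adra2a, the controls enclosed the FC values, with 216 reads in replicate 6 and 0 reads in replicate 7, where a count of 0 allows up to 0.158 CPM. The log2 fold change was 0.08 (limma, SE 0.94, 95% interval -2.19 to 2.35, adjusted p = 0.972), while the mean CPM was lower in the FC group (2.05 against 3.61). Leaving out control replicate 6 gave 1.60 (limma, adjusted p = 0.00594) and leaving out control replicate 7 gave -1.44 (adjusted p = 0.0218).

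Adra1b (ENSMUSG00000050541), the other Gq-coupled member of the table, had 46, 33 and 36 reads in the FC libraries (2.18, 1.37 and 1.79 CPM) and 5 and 0 reads in control replicates 6 and 7 (0.167 and 0 CPM). All FC libraries were above both controls. The log2 fold change was 1.35 (limma, SE 0.48, 95% interval 0.18 to 2.53, adjusted p = 0.254), and it was 3.50 with a pseudocount of 0.1, since the scale understates changes of low genes. Of the 796 genes with an FC mean within 1.25 times that of Adra1b, 19.8% were at 0 in control replicate 6 and 47.4% in control replicate 7. Without control replicate 6 it was 1.47 and without control replicate 7 it was 1.24 (limma, adjusted p = 0.00878 and 0.0373). A fold change from so few control reads is at the limit of what this depth resolves.

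**Figure D3:**
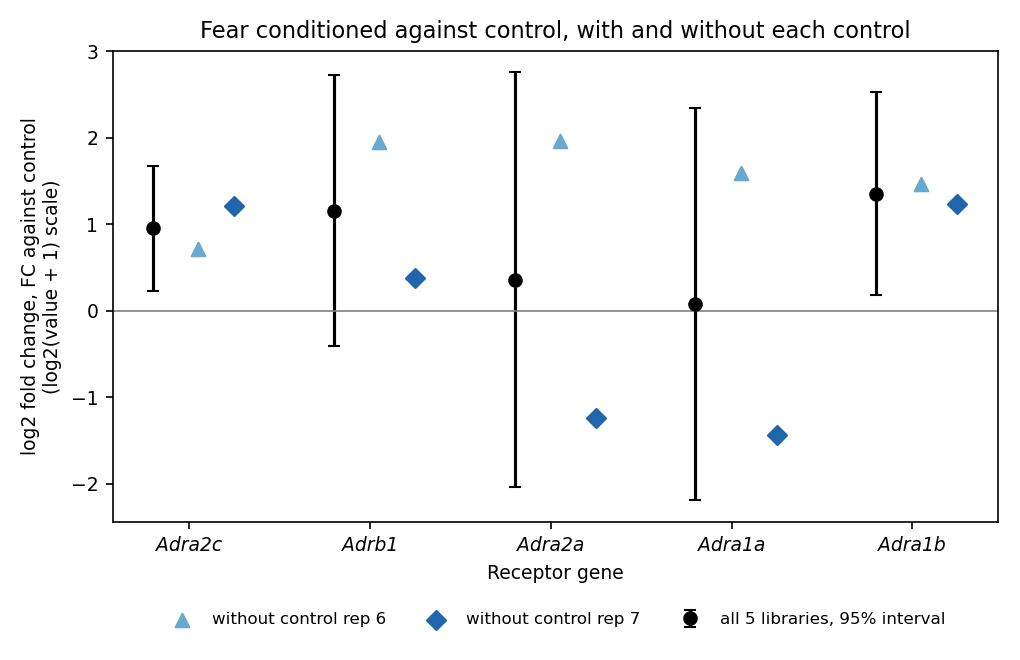
Log2 fold changes of the 5 tested receptors on the log2(value + 1) scale, FC against control, with 95% intervals from limma for all 5 libraries (black) and the values without control replicate 6 (triangles) or 7 (diamonds). Adra2c, Adrb1 and Adra1b stay above 0 without either control, whereas Adra2a and Adra1a change sign with the control left out.

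Marker lists of several cell types were set beside the receptors, and limma called none of their genes. The list for striatal-type Drd2 neurons holds Drd2, Adora2a, Penk, Gpr6, Rgs9, Ppp1r1b and Drd1a, of which the last marks the other striatal class. Drd1a had 33.9, 42.8 and 83.5 CPM in the FC libraries and 15.2 and 27.6 CPM in the controls. Without Drd1a the list summed to 20788, 19099 and 20728 CPM in the FC libraries and 7609 and 11954 CPM in the controls, mostly Penk, with FC values above both controls for 6 of 6 (20.2% of all genes tested), none at 0 and a median log2 fold change of 1.30. The study reported Adora2a and Gpr6 as higher in these data, so that count is not independent of them. The 6 astrocyte markers summed to 617, 480 and 628 CPM in the FC libraries and 1405 and 2378 CPM in the controls, led by Slc1a2, with 5 of 6 lower by the log2 fit and none at 0. Aldh1l1 was the exception, with 32.2 and 1.21 CPM in the controls, around its FC values, and a lower mean CPM in the FC group (13.7 against 16.7). The 6 oligodendrocyte markers summed to 1809, 1248 and 2640 CPM in the FC libraries and 2707 and 5183 CPM in the controls, with 6 of 6 lower. The 5 listed choroid plexus markers (of 6) summed to 57.7, 110 and 62.6 CPM in the FC libraries and 1004 and 1415 CPM in the controls, led by Ttr, with 4 of 5 lower and Kcnj13 and Folr1 at 0 in FC replicate 2. Ttr and Kcnj13 were reported as lower by the study in these data.

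Neuronal lists other than the striatal type were less uniform. The 3 GABAergic markers, led by Gad1, summed to 1283, 1399 and 1425 CPM in the FC libraries and 1399 and 1824 CPM in the controls, with 2 of 3 lower. The 7 pallial glutamatergic markers, led by Slc17a7, summed to 201, 188 and 48.2 CPM in the FC libraries and 358 and 277 CPM in the controls, with 5 of 7 lower. Central amygdala markers, led by Sst, summed to 296, 169 and 157 CPM in the FC libraries and 306 and 546 CPM in the controls, with 5 of 7 lower by the log2 fit. Crh and Tac2 had fitted log2 fold changes of 1.03 and 1.07, but Tac2 was at 27.7 and 0 CPM in the controls, around its FC values, and its mean CPM was lower in the FC group. FC values lay below both controls for 4 of the 7, beside 16.1% of all genes tested. Among them is Dlk1, which the study reported as lower in these data, so that count is not independent of them. Oligodendrocyte precursors (2 markers, led by Pdgfra) reached 17.7, 11.9 and 10.5 CPM in the FC libraries and 42.3 and 27.6 CPM in the controls, with 2 of 2 lower. For microglia, 6 markers led by Csf1r gave 65.0, 39.6 and 71.3 CPM in the FC libraries and 76.4 and 60.0 CPM in the controls, with 4 of 6 higher by the log2 fit. C1qa counts among these 4, although its mean CPM was lower in the FC group (8.07 against 8.29). Endothelial and mural markers (8 genes, led by Rgs5) gave 55.1, 21.4 and 50.1 CPM in the FC libraries and 111 and 114 CPM in the controls, with 7 of 8 lower. Of 4 markers of noradrenergic neurons 2 were listed, led by Th, and summed to 13.8, 15.0 and 18.7 CPM in the FC libraries and 36.2 and 3.16 CPM in the controls, with 2 of 2 higher by the log2 fit, although the mean CPM of Th was lower in the FC group. The part of any of these cells in the receptor values was not tested.

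By pattern over the 5 libraries, Adra2c lay closest to Arl3, Mrpl13 and Penk. The root mean square difference of log2(CPM + 1), each gene centred on its own mean, was 0.0606 for Arl3, 0.0721 for Mrpl13 and 0.0815 for Penk, among 13559 genes searched. Adrb1 lay closest to Serpinh1 (0.0505), Khdrbs2 (0.0506) and Eif2ak4 (0.0598), and Adra1a to Fndc1 (0.0221), Pxk (0.0593) and Cbfb (0.0696). With 5 libraries many genes share a pattern, and 258, 365 and 170 genes lay within 0.25 of Adra2c, Adrb1 and Adra1a. The patterns differ in their low library, which is control replicate 6 for Adra2c and control replicate 7 for Adrb1 and Adra1a.

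**Figure D4:**
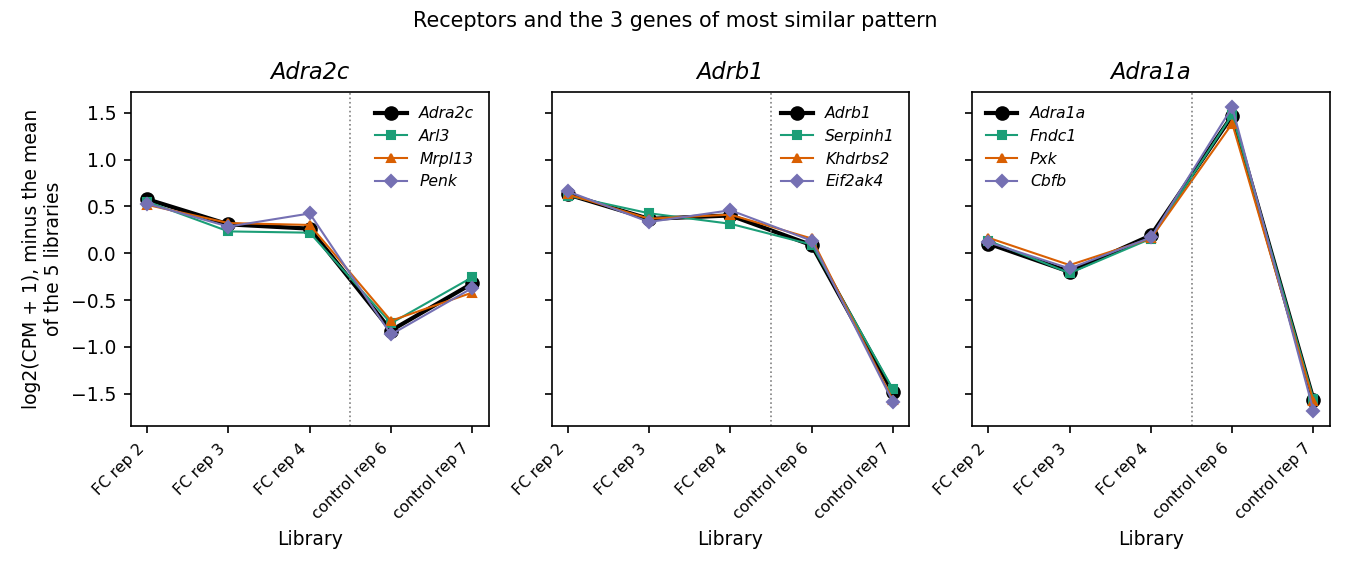
Each panel shows log2(CPM + 1) of a receptor (black) and its 3 nearest genes in the 5 libraries, after subtracting each gene's mean, with a dotted line between FC and control libraries. Adra2c is lowest in control replicate 6, and Adrb1 and Adra1a are lowest in control replicate 7.

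The wider noradrenergic pathway was followed in 6 lists of 53 genes, of which 50 were listed and tested. limma called 0 of the 50. Unadjusted p values under 0.05 were found for 2 genes that were higher and 5 that were lower, or 4% and 10% of the 50, beside 9.49% and 7.32% of all genes tested. The groups did not overlap for 5 higher and 15 lower genes, or 10% and 30%, beside 20.2% and 16.1% of all genes tested. DESeq2 called 3 of the named genes, Pnmt, Prkca and Gnai1, beside 7.96% of the genes with an adjusted p, and each of the 3 was named for the smallest limma p of its list. The median log2 fold change of all genes tested was 0.08.

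Genes for making, storing and taking up the transmitter summed to 41.3, 37.7 and 46.0 CPM in the FC libraries and 66.4 and 54.8 CPM in the controls. Of 8 genes, 6 were tested, 4 higher and 2 lower, with a median log2 fold change of 0.46. Dbh and Slc6a2, which define noradrenergic neurons, are not among the listed genes and are not analysed here. Ddc, which makes dopamine from L-DOPA, had the highest mean value, with 13.7, 5.62 and 7.89 CPM in the FC libraries and 15.9 and 36.6 CPM in the controls (log2 fold change -1.40, limma, adjusted p = 0.316). Th, the first enzyme of the path, had 6.92, 6.62 and 9.93 CPM in the FC libraries and 29.8 and 0.0527 CPM in the controls, so its controls enclosed the FC values as they did for Adra1a and Adra2a. Th counts as higher by its fitted log2 fold change of 0.61 (limma, adjusted p = 0.838), while its mean CPM was lower in the FC group (7.82 against 14.9), and the fit gave -1.82 without control replicate 7. Pnmt, which makes epinephrine from norepinephrine, had 2.18, 1.79 and 3.57 CPM in the FC libraries and 0 in both controls. Against a floor of 3 reads in each control library (mean 0.129 CPM) its FC mean of 2.52 CPM was at least 19.5-fold higher. That floor takes in counting error alone. Of the 789 genes with an FC mean within 1.25 times that of Adra1a (2.05 CPM), 18.1% were at 0 in control replicate 6 and 44.2% in control replicate 7. Pnmt passed the filter only through its FC values and is 1 of the 2 genes counted above as higher. That count, the fold bound of Pnmt, its place among the genes whose groups did not overlap and its DESeq2 call are thus not independent of the filter.

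Breakdown enzymes came next. Of the 5 genes, 3 were higher and 2 lower, with a median of 0.24. Aldh2, an aldehyde dehydrogenase, had 43.5, 31.5 and 42.3 CPM in the FC libraries and 43.0 and 4.64 CPM in the controls, low in control replicate 7 alone. Maoa, a monoamine oxidase, had 16.4, 16.0 and 15.2 CPM in the FC libraries and 23.8 and 27.5 CPM in the controls, lower in every FC library (log2 fold change -0.66, limma, adjusted p = 0.422).

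In the Gq arm, through which Adra1a and Adra1b signal, 4 of 11 tested genes were higher and 7 lower, with a median log2 fold change of -0.38. Prkca, a protein kinase C, had the smallest p of the list, with 32.0, 40.7 and 44.3 CPM in the FC libraries and 85.7 and 91.8 CPM in the controls. The fitted log2 difference was -1.18 ± 0.28 (SE, limma, adjusted p = 0.197), and DESeq2 gave -1.22 (adjusted p = 0.00855). Prkcb, the gene of highest value in the arm, had 546, 1625 and 989 CPM in the FC libraries and 892 and 1324 CPM in the controls, with overlapping groups (log2 fold change -0.18, limma, adjusted p = 0.864). Itpr1, an inositol trisphosphate receptor, had a log2 fold change of 0.40 (limma, adjusted p = 0.570).

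The Gi/o arm serves Adra2a, Adra2b and Adra2c. Of its 8 genes, 1 was higher and 7 were lower, with a median of -0.46. Gnai1, a Gi alpha subunit, had 129, 133 and 109 CPM in the FC libraries and 296 and 195 CPM in the controls, below both controls in each FC library (log2 fold change -0.95, limma, SE 0.26, adjusted p = 0.208), and DESeq2 gave -1.01 (adjusted p = 0.0166). Gnao1, the Go alpha subunit and the member of highest value, had 797, 989 and 995 CPM in the FC libraries and 608 and 1382 CPM in the controls, and its log2 fold change was 0.01 (limma, adjusted p = 0.993).

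In the Gs arm, on which Adrb1 acts, 6 of 9 genes were higher and 3 lower, with a median of 0.14. Prkar1a and Prkar1b, regulatory subunits of protein kinase A, had its highest values, with log2 fold changes of 0.14 and 0.02 (limma, adjusted p = 0.808 and 0.982). Gnas, the Gs alpha subunit, had 17.8, 7.66 and 10.1 CPM in the FC libraries and 19.0 and 46.0 CPM in the controls (log2 fold change -1.33, limma, adjusted p = 0.321), and its reads are uncertain where its antisense gene overlaps it. Without strand the same holds for Prkar1b, which overlaps the coding gene Dnaaf5, for Gnai1 and Prkcb, which overlap pseudogenes, and for Ddc, Gnao1, Itpr1, Ppp1r9b, Prkar1a and Prkca, which overlap noncoding RNA genes. Gnal, the Gs-like subunit of striatal neurons, chosen after its values were seen, had 483, 886 and 785 CPM in the FC libraries and 425 and 459 CPM in the controls (log2 fold change 0.65, limma, adjusted p = 0.346).

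Among receptor kinases, arrestins and binding partners, 2 of 11 genes were higher and 9 lower, with a median of -0.23. Gipc1, which binds the tail of the beta1 receptor, had 160, 174 and 148 CPM in the FC libraries and 114 and 76.6 CPM in the controls, higher in every FC library (log2 fold change 0.77, limma, SE 0.25, adjusted p = 0.238). Ppp1r9b, or spinophilin, which binds alpha2 receptors, had 224, 173 and 218 CPM in the FC libraries and 161 and 355 CPM in the controls (log2 fold change -0.23, limma, adjusted p = 0.775).

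**Figure D5:**
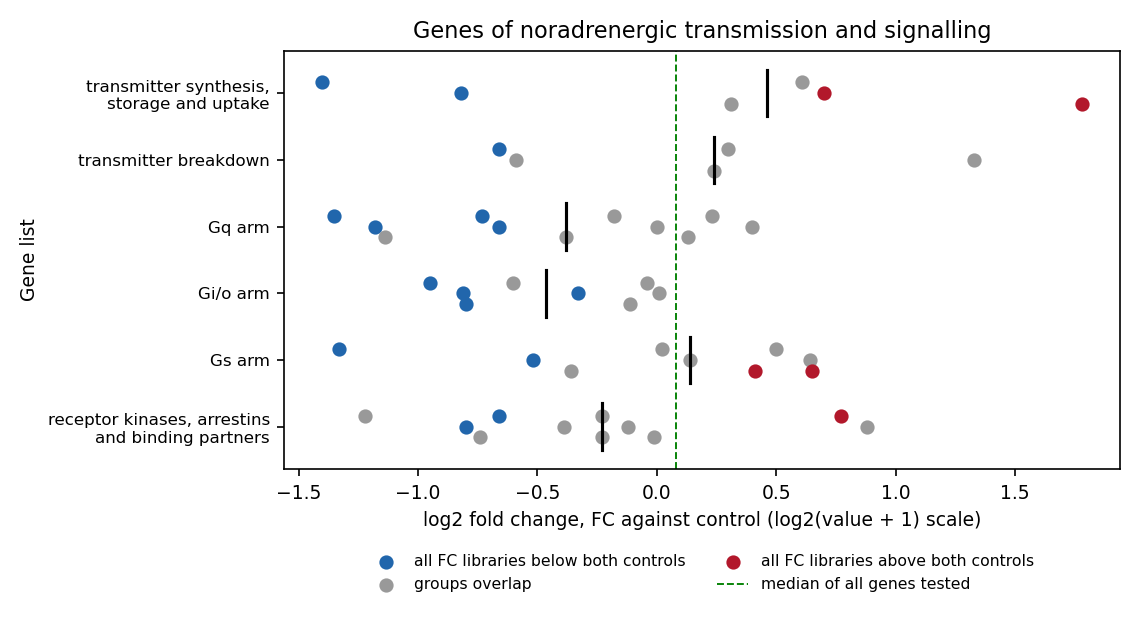
Points are the 50 tested genes of the 6 lists, placed by log2 fold change on the log2(value + 1) scale, with black bars for list medians and a dashed line for the median of all genes tested (0.08). Red and blue mark genes whose groups do not overlap, and the Gi/o list has 4 blue points of 8 and no red, beside 16.1% and 20.2% of all genes tested.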

How the data were processed

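The authors pulled down tagged ribosomes, made amplified libraries from the RNA with a SMARTer kit and sequenced them, and analysed reads with software called Tuxedo DESeq in the methods. The submitters' processing notes name DESeq and the build mm8, while the aligner and counter are not given in the sources used here, nor whether strand was used. The authors deposited 1 table with a normalized signal per gene and library, in CPM of an effective library size, and a gene length. Within each library 100% of values were whole multiples (within 0.01) of the smallest value above 0, and these multiples served as recovered reads.

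Only genes with a mean value of 1 or more were compared between FC and control libraries, as log2(value + 1), with the moderated two-sided test of limma 3.58.1 (trended eBayes). P values were adjusted over all these genes by the Benjamini-Hochberg method. Recovered reads were tested with edgeR 4.0.16, DESeq2 1.42.0 and voom. Other normalizations, filters and pseudocounts and a weight for each group were tried, and libraries were omitted 1 at a time. Receptor genes, lists and tests were chosen with earlier results of these data known. Named pathway genes were the 2 of highest mean value in each list and its gene of smallest p. Some genes that this rule or the marker lists would name are not reported here. Depth of 19605318 to 27937520 reads a library sets the floor for rare receptors. Fits ran in R 4.3.3, and levels, ratios and plots were made in Python 3.11.15 (matplotlib 3.10.9, scipy 1.17.1, pandas 2.3.3, numpy 2.4.6).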

Additional observations from a re-analysis of the deposited data

How the results depend on the processing

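No paired analysis was possible because the groups share no replicate numbers. Over the alternatives run, Adra2c and Adrb1 stayed positive, with log2 fold changes from 0.71 to 1.21 and from 0.38 to 1.95. Adra1b ranged from 0.49 to 4.67, but the filter and control libraries with at most 5 reads leave little room for another sign of Adra1b, and none for Adra2b, which had 0. Omitting 1 library at a time gave ranges of 0.71 to 1.21 for Adra2c, 0.38 to 1.95 for Adrb1, 1.24 to 1.47 for Adra1b, 0.64 to 0.97 for Adra2b, -1.24 to 1.96 for Adra2a and -1.44 to 1.60 for Adra1a. Adra1b fell below the filter without FC replicate 2 or 4. In these fits a lone control was assumed to vary like the FC libraries, and between 0 and 8025 genes passed the cutoffs. With 1 library omitted, the mean share of Adra2c was 73.4% to 74.4% in the FC group. In the control group, where this leaves 1 library, the share was 91.9% without replicate 6 and 50.5% without replicate 7. The edgeR likelihood ratio test, added after the values were seen, called Adra1b (4.25, adjusted p = 0.0478), Adra2b (7.30, adjusted p = 0.00587) and 1115 genes in all, and DESeq2 called 1155 genes and none of the 5 receptors with an adjusted p. Adra1a and Adra2a turned negative with quantile normalization (-0.37 and -0.26) and edgeR's quasi-likelihood test (-0.77 and -0.38). They were also negative with the same test with no filter (-0.75 and -0.37), the likelihood ratio test (-0.77 and -0.38) and DESeq2 (-0.80 and -0.42). Both were positive with a pseudocount of 0.1 (1.31 and 0.75) and with voom (2.07 and 0.44). The cause of these moves was not tested. The log2 fold change of Adra2b was 7.30 with all 3 edgeR fits, 6.76 with DESeq2 and 5.23 with voom, where 0 control reads leave it to the settings of each tool. The median log2 fold change of all genes was 0.08, but -0.11 with DESeq2 and 0.25 with voom.

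Of 237 refits of 16 named pathway genes, 28 changed sign. In 19 others a gene kept its direction and was called. DESeq2, the likelihood ratio test and limma without control replicate 7 each called Pnmt, Prkca and Gnai1, and limma without control replicate 6 called these and Aldh2, Ddc, Gipc1, Gnas, Maoa, Ppp1r9b and Th. The same fits called 7.96%, 7.70%, 27.5% and 60.5% of all genes with an adjusted p. Without control replicate 7, Th was called in the opposite direction (-1.82, adjusted p = 0.00908). Under quantile normalization, the quasi-likelihood test, that test unfiltered, the likelihood ratio test and DESeq2, Gnao1 was -0.06, -0.12, -0.10, -0.12 and -0.15, Prkar1b was -0.01, -0.03, -0.02, -0.03 and -0.06, and Th was -0.03, -0.88, -0.86, -0.88 and -0.91. With a library left out, the ranges that crossed 0 were -0.15 to 2.82 for Aldh2, -0.58 to 0.60 for Gnao1, -0.80 to 0.34 for Ppp1r9b, -0.06 to 0.35 for Prkar1a, -0.50 to 0.54 for Prkar1b, -0.56 to 0.22 for Prkcb and -1.82 to 3.05 for Th. Other ranges that moved by more than 1.5 times were -1.98 to -0.82 for Ddc, -1.95 to -0.72 for Gnas, 0.04 to 0.76 for Itpr1 and 0.48 to 1.05 for Gipc1.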

Other observations

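Adrb3, a beta receptor known for its part in fat tissue, had 0, 20 and 6 reads in FC replicates 2, 3 and 4 and 0 and 108 reads in control replicates 6 and 7, so that most of its reads came from control replicate 7. In that library its level per kilobase of gene length, 1.70 CPM, was above the 0.889 CPM of Adrb1 and below the 11.9 CPM of Adra2c.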
